A study of Homo sapiens with 12 samples.

Results

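The genes described here are the kinesins with symbols KIF followed by a number, the centromere proteins with symbols CENP followed by a letter, the Aurora kinases AURKA, AURKB and AURKC, and 18 further regulators of mitosis chosen by name. Of 23228 gene symbols in the count files, 77 met this rule, 39 of them KIF, 17 CENP and 3 AURK symbols. They were measured by RNA sequencing of polyadenylated RNA from SUM149PT, an established human breast cancer cell line, in 4 groups of 3 libraries with the letters A, B and C. The DMSO group received vehicle, the ipatasertib group 5 µM of this inhibitor of the AKT kinases, the tazemetostat group 5 µM of this inhibitor of the histone methyltransferase EZH2, and the combination group both at these doses. Tazemetostat was present from day -5 and ipatasertib from day 0, when all groups were moved to medium with 2% serum, and RNA was taken 24 h later, so exposure to tazemetostat was the longer one. All groups are of 1 cell line, and the labels do not say whether the letters stand for separate cultures, so p-values measure only the spread between these libraries.

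Cells that divide build a spindle of microtubules, attach each chromosome to it at the kinetochore, and hold anaphase back until every attachment is made. CENPA, a histone H3 variant, marks the centromere. A set of inner kinetochore proteins sits on it, the NDC80 and NUF2 proteins of the outer kinetochore bind microtubules, and BUB1, BUB1B, BUB3, MAD2L1 and TTK form the spindle checkpoint that restrains CDC20. CDK1 with cyclins A and B, PLK1 and the Aurora kinases drive entry into and passage through mitosis, and kinesins move chromosomes and microtubules. Most of these genes are transcribed late in the cell cycle, under the MuvB complex with B-MYB and FOXM1, through a promoter element called the CHR, often beside CCAAT boxes. Many other kinesins carry vesicles and organelles, although some of them, such as KIF2A, also act on spindle microtubules.

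The promoters of 4 members are shown because 3 of the genes fell by different amounts with ipatasertib while the fourth, CCNB2, did not pass the test there, and that of KIF26A because this kinesin had the largest change of all members. Each line is the 150 bases before the annotated start, 5′ to 3′ on the strand of the gene, from RefSeq on GRCh38.p14, which is not the hg19 build of the count files. Capitals mark matches on either strand to the CHR letters TTTGAA and to CCAAT. The regions are chr1:43358831-43358980 for CDC20, chr16:23678739-23678888 for PLK1, chr15:69414199-69414348 for KIF23, chr15:59104996-59105145 for CCNB2 and chr14:104138437-104138586 for KIF26A, all on the plus strand.
CDC20: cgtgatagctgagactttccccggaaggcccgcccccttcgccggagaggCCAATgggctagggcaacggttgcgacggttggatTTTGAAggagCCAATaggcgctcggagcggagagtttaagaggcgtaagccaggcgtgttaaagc
PLK1: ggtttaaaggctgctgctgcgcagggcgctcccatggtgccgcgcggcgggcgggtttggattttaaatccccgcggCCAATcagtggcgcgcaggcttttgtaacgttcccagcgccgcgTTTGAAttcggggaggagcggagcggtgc
KIF23: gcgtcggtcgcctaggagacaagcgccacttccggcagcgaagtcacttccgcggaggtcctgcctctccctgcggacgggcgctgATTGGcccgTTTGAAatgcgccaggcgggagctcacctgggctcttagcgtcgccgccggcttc
CCNB2: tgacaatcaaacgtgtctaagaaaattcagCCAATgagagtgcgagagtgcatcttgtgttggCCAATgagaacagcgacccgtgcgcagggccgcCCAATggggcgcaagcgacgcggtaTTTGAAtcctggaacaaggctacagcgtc
KIF26A: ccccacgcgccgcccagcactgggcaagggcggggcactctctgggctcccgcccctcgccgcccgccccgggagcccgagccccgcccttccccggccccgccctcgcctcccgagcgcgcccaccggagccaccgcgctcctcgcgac

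Motif letters were counted on both strands of windows of 300 bases, 250 before and 50 after the start. The RefSeq table held 62 of the 77 members, and 41 of the 50 outside the list of other kinesins. For the 10 members with more than 1 entry only the first was used, while the share of all windows counts every entry. Of these 41 windows, 24 (58.5%) held TTTGAA, against 15.2% of all 35116 windows of the table. CCAAT was found in 29 of 41 (70.7%) against 34.6%, and both motifs in 19 of 41 (46.3%) against 5.90%. The E2F letters TTCCCGCC occurred in 3 of 41 windows (7.32%) against 3.16% of all, and the forkhead letters TGTTTAC in 2 of 41 (4.88%) against 3.42%. A match is a string of letters and not a measured binding site. The table also holds noncoding genes, so all windows are not a matched background. It held 9998 of the 14874 genes tested for expression, so this background lacks a part of the genes tested. In the windows of these 9998 genes the shares were 9.70% for the CHR, 36.3% for CCAAT and 4.06% for both. They were 4.93% for the E2F letters and 2.26% for the forkhead letters. Of the remaining 27 kinesins 21 were in the table, too few to read a share from.

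**Figure D1:**
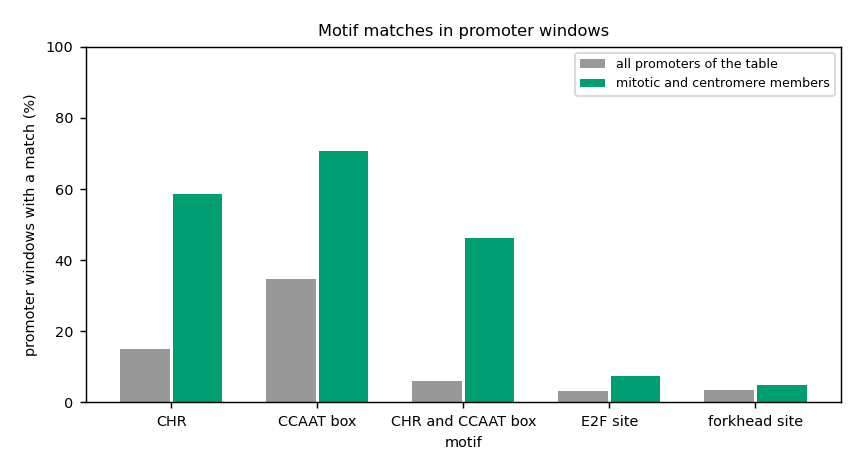
Share of promoter windows with each motif, in percent of windows, for the 41 mitotic and centromere members in the RefSeq table (green) and for all 35116 windows of the table (grey). The CHR was found in 58.5% of the member windows and 15.2% of all windows, while the E2F and forkhead letters were rare in both.

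Levels are CPM, the count of a gene divided by library size, scaled with TMM factors, a scaling that sets most genes as unchanged between libraries. CPM is not divided by gene length, so levels of different genes are not compared. Libraries held 22355242 to 49970540 gene counts, and 3 counts, the most that a count of 0 leaves possible from counting error alone, came to 0.0602 to 0.130 CPM. Scaling by library totals alone would shift the overall median log2 change against DMSO by 0.12 for ipatasertib, by 0.07 for tazemetostat and by 0.14 for the combination, and would raise the share of higher genes among all called from 46.9% to 63.1%, from 54.6% to 69.6% and from 51.4% to 62.6%. Replicates differed with a chi-square per degree of freedom of 2.70 to 6.99, except pairs with tazemetostat A at 18.2 and 20.1 and pairs with combination B at 15.1 and 26.2. Counts called below are therefore also given without these libraries. Reads not assigned to a gene, for any reason, took 31.0% to 32.9% of a DMSO library and 29.8% to 30.7% of a tazemetostat library. They took 37.4% to 38.6% of an ipatasertib library and 35.7% to 38.0% of a combination library. Of markers of other cell types, 7 fibroblast genes had a summed level of 549 to 576 CPM in DMSO libraries, of 343 to 381 CPM in ipatasertib libraries, of 112 to 118 CPM in tazemetostat libraries and of 80.3 to 86.5 CPM in combination libraries. With ipatasertib 3 of the 6 fibroblast genes tested rose and 3 fell, and the sum is mostly COL1A1. The 4 endothelial genes summed to 0.932 to 1.44 CPM in DMSO libraries, 3.09 to 3.89 CPM with ipatasertib, 1.44 to 1.93 CPM with tazemetostat and 4.83 to 6.70 CPM in the combination. The 8 basal epithelial markers of the line itself summed to 2475 to 2554 CPM in DMSO libraries and 2007 to 2127 CPM with tazemetostat, but to 1416 to 1449 CPM with ipatasertib and 1320 to 1338 CPM in the combination. Their sum was thus lower than under DMSO in every treated group, and lowest in the groups with ipatasertib. Of these 8 markers 5 fell and 2 rose with ipatasertib and in the combination, and 5 fell and 1 rose with tazemetostat. PGR had no count under DMSO. The part of these differences in the results was not tested. 

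Of the 77 members 70 passed the filter on low counts, 33 KIF and all 17 CENP symbols among them. AURKC, an Aurora kinase of meiosis, was the only kinase left out, with 47 counts over all 12 libraries. The kinesins KIF19, KIF25 and KIF2B had 1, 6 and 1 counts, and KIF12, KIF1A and KIF6 had 62, 47 and 60. The members were set apart by function into 50 genes of mitosis, centromere and centriole, of which 49 passed, and 27 other kinesins, of which 21 passed. The second list holds KIF2A and KIF2B, which have roles at the spindle too. In the DMSO libraries A, B and C the 50 genes took 0.805%, 0.794% and 0.810% of gene counts. With ipatasertib they took 0.642%, 0.638% and 0.640%, with tazemetostat 0.855%, 0.910% and 0.911%, and in the combination 0.557%, 0.629% and 0.557%. The share was lower in every ipatasertib and combination library than in any DMSO library and higher in every tazemetostat library, and combination B lay closest to ipatasertib. These shares are not scaled with the TMM factors, which were 0.942 to 0.950 for DMSO and 0.989 to 0.997 for tazemetostat libraries. On the scale of CPM the rise with tazemetostat is therefore smaller. In bulk RNA, fewer cells in division and less RNA per dividing cell cannot be told apart.

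**Figure D2:**
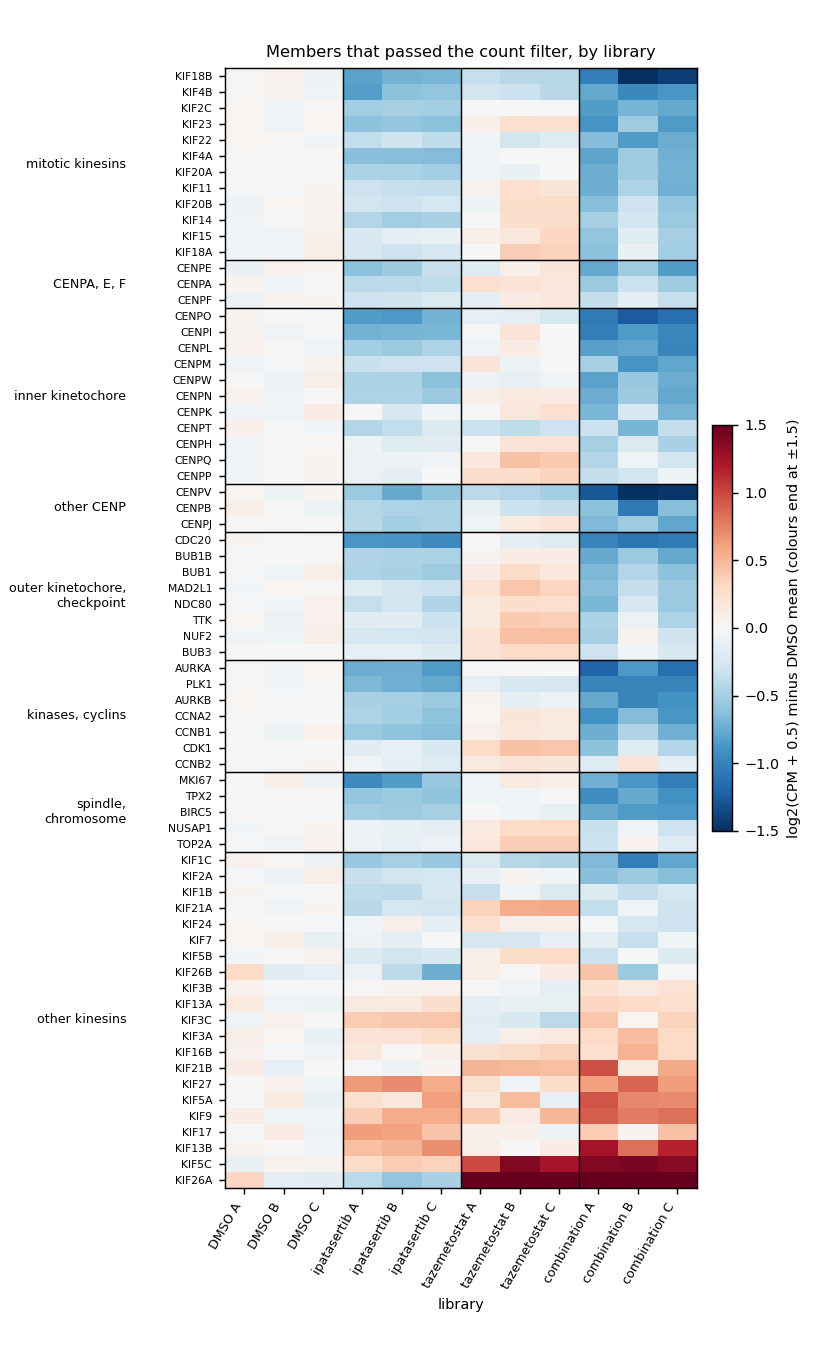
Each row is a member that passed the count filter and each column a library, with log2(CPM + 0.5) minus the DMSO mean in colour and rows ordered within a group by the change in the combination. Mitotic and centromere genes are mostly blue with ipatasertib and the combination and mixed with tazemetostat, while KIF26A and KIF5C are red in all 6 libraries with tazemetostat.

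Ipatasertib against DMSO shows how these genes differed after 24 h with this inhibitor. Of 70 members 44 fell and 8 rose, where 28.7% of all 14874 genes tested fell and 25.4% rose (edgeR quasi-likelihood test, Benjamini-Hochberg adjusted p under 0.05). The 8 include KIF17, which passed the filter only through the group where it is high. Of the 49 mitotic and centromere genes, 38 fell and 0 rose. Their median log2 change was -0.47, against -0.01 over all genes. In 47 of the 49 the ipatasertib libraries lay wholly below the DMSO libraries, as in 34.7% of all genes. The falls were moderate, 12 of them exceeding 1.5-fold (7.36% of all genes) and none 2-fold (2.1%). Without tazemetostat A and combination B, 52 members fell and 8 rose. Calls over all genes also rose in that fit, from 8040 to 9373, while the median change of the members was -0.34 in both fits. Of the 52 members called here, 42 passed in each of 19 other settings.

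Tazemetostat against DMSO moved the same genes in both directions. Of 70 members 20 rose and 11 fell, against 25.1% and 20.9% of all genes tested, shares near the background. Of the 49 mitotic and centromere genes 13 rose and 8 fell, none of the falls exceeding 1.5-fold (3.6% of all genes), and the median was 0.09 against 0.02 over all genes. The counts depended on scaling, with 31 higher and 6 lower under library totals alone. They also depended on single libraries. Without DMSO B or without tazemetostat C 11 rose and 7 fell, without DMSO A 15 rose and 7 fell, and without tazemetostat A and combination B together 34 rose and 12 fell. Calls over all genes moved too, from 6849 in the main fit, 3737 of them higher. They numbered 6938 under library totals, 4828 of them higher, and 8668 without tazemetostat A and combination B, 4670 of them higher. Without DMSO B, tazemetostat C or DMSO A they numbered 5504, 5615 and 5487.

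In the combination against DMSO, 51 of 70 members fell and 13 rose, with 34.5% of all genes lower and 36.5% higher. All 13 that rose were kinesins outside the mitotic list, with KIF17 among them. Of the 49 mitotic and centromere genes 46 fell, with a median of -0.66 against 0.02 over all genes, and 28 fell by over 1.5-fold (14.8% of all genes). A fall of over 2-fold was reached by 6 of the 49 (5.11% of all genes). These were KIF18B, CENPV, CENPO, AURKA, CDC20 and PLK1. Without tazemetostat A and combination B, 53 members fell and 13 rose, and calls over all genes went from 10565 to 11014.

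Tazemetostat added to ipatasertib lowered 27 members and raised 8, where 17.3% of all genes fell and 21.8% rose. All but 2 of those that fell were mitotic or centromere genes, 25 of 49, with a median of -0.21, and none of the 49 rose. The 2 libraries that stood apart bear on this count. Without both, 43 members fell and 9 rose, and without combination B alone 37 fell and 8 rose. Calls over all genes rose as well, from 5823 in the main fit, 3248 of them higher. They numbered 6933 without both, 3676 of them higher, and 5974 without combination B, 3289 of them higher. Just 5 members rose without ipatasertib A, without ipatasertib B or without combination A. Among the centromere genes CENPV, CENPK and CENPM fell most, by 0.82 (SE 0.09), 0.44 (SE 0.11) and 0.41 (SE 0.10) on the log2 scale, and of the kinesins KIF26A, KIF5C and KIF21B rose most, by 3.65 (SE 0.23), 1.11 (SE 0.10) and 0.66 (SE 0.16).

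Ipatasertib added to tazemetostat lowered 54 members and raised 8, against 30.8% and 29.8% of all genes, and 48 of the 49 mitotic and centromere genes fell, CENPT being the exception at -0.11 (SE 0.10). Without tazemetostat A and combination B, 54 members fell and 10 rose, and calls over all genes went from 9020 to 9674. KIF13B, KIF5A and KIF27 rose most, by 1.03 (SE 0.09), 0.72 (SE 0.18) and 0.58 (SE 0.10). The inhibitors set directly against each other differed as well, with 52 members lower and 5 higher under ipatasertib than under tazemetostat, against 31.7% and 24.6% of all genes. The 5 include KIF17, which passed the filter only through the group where it is high. Without the same libraries these counts were 56 and 6, and calls over all genes went from 8380 to 9500.

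**Figure D3:**
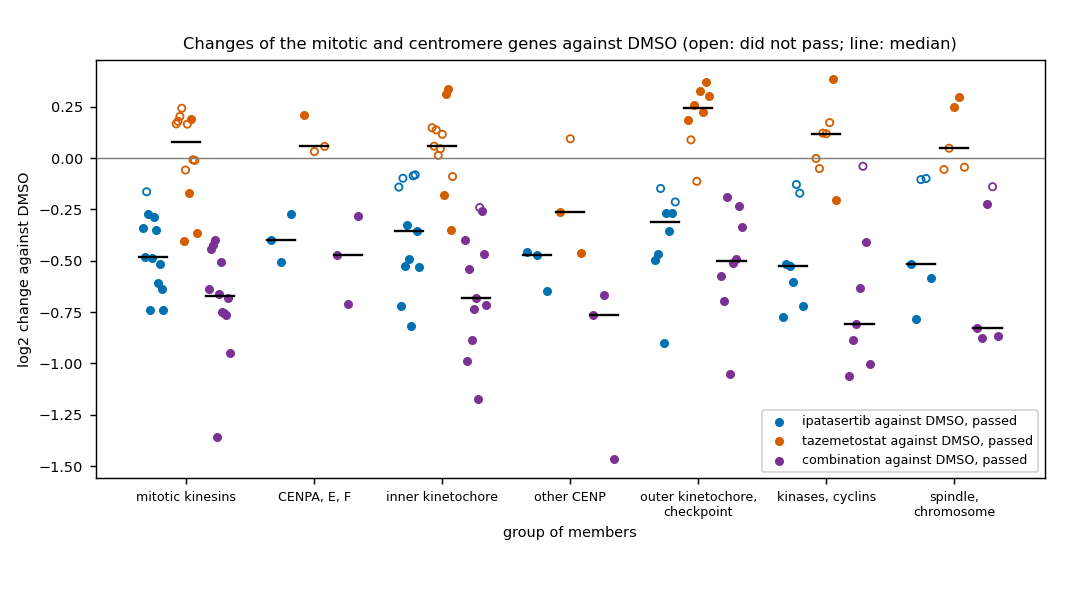
Log2 change against DMSO (vertical axis) of the 49 mitotic and centromere genes by functional group, for ipatasertib (blue), tazemetostat (orange) and the combination (purple). Each point is a gene, filled where it passed the test, and the line is the median. Blue and purple points lie below 0 in every group. Orange points lie on both sides in all groups but CENPA, CENPE and CENPF, where all 3 are above 0.

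Among the mitotic kinases and cyclins, 5 of 7 fell with ipatasertib and 6 of 7 with the combination, against 28.7% and 34.5% of all genes. PLK1, the kinase that drives centrosome maturation and mitotic entry, stood at 228, 220 and 228 CPM in DMSO libraries A, B and C, and at 141, 137 and 132 CPM with ipatasertib. It stood at 207, 191 and 190 CPM with tazemetostat and at 113, 112 and 112 CPM in the combination. No group overlapped another for this gene, and the combination was the lowest. The log2 changes against DMSO were -0.72 (SE 0.05, adjusted p = 2.06e-09), -0.20 (SE 0.05, adjusted p = 0.00504) and -1.00 (SE 0.06, adjusted p = 4.15e-12), in the same order. AURKA, the spindle pole kinase, went from 341, 325 and 342 CPM to 201, 202 and 187 CPM with ipatasertib, 333, 340 and 334 CPM with tazemetostat and 146, 185 and 153 CPM in the combination. The tazemetostat libraries overlapped DMSO at a change of 0.00 (SE 0.07), and the combination was lowest, at -1.06 (SE 0.07, adjusted p = 7e-11). AURKB, the kinase of the chromosomal passenger complex, changed by -0.52 (SE 0.06) with ipatasertib, -0.05 (SE 0.06) with tazemetostat, not passing, and -0.89 (SE 0.06) in the combination.

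CDK1, the kinase of mitotic entry, behaved otherwise. It stood at 190, 190 and 189 CPM under DMSO, 170, 174 and 162 CPM with ipatasertib, 234, 258 and 252 CPM with tazemetostat, and 123, 165 and 140 CPM in the combination. The tazemetostat libraries were all above DMSO, a rise of 0.39 (SE 0.08, adjusted p = 0.000442), and combination B overlapped ipatasertib. With ipatasertib alone its change of -0.17 (SE 0.08) did not pass (adjusted p = 0.0684), but in the combination it fell by 0.41 on the log2 scale (SE 0.08, adjusted p = 9.74e-05).

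The cyclin partners of CDK1 differed among themselves. CCNA2, cyclin A of S phase and early mitosis, changed by -0.53 (SE 0.07) with ipatasertib and -0.81 (SE 0.07) in the combination, and fell further when tazemetostat was added to ipatasertib, by 0.28 on the log2 scale (SE 0.07, adjusted p = 0.00264). CCNB1, cyclin B1, was at 407, 386 and 424 CPM under DMSO, 276, 267 and 259 CPM with ipatasertib, 425, 451 and 444 CPM with tazemetostat and 243, 296 and 245 CPM in the combination. Both ipatasertib and the combination lay below DMSO, at -0.60 (SE 0.07) and -0.63 (SE 0.07), and overlapped each other. CCNB2, cyclin B2, was at 81.4, 82.3 and 85.6 CPM under DMSO, 80.2, 74.9 and 72.6 CPM with ipatasertib, 91.3, 95.2 and 94.4 CPM with tazemetostat and 72.6, 94.8 and 75.2 CPM in the combination. Combination B was among the highest libraries and the other combination libraries among the lowest, and none of the 3 changes against DMSO passed, at -0.13 (SE 0.08), 0.17 (SE 0.08) and -0.04 (SE 0.08).

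CDC20, the activator of the anaphase-promoting complex, had the largest fall of the outer kinetochore and checkpoint group. Its levels were 548, 524 and 523 CPM under DMSO, 290, 288 and 274 CPM with ipatasertib, 529, 479 and 466 CPM with tazemetostat, and 265, 248 and 256 CPM in the combination. Both groups with ipatasertib lay far below the other libraries, at 53.5% of the DMSO mean with ipatasertib and 48.3% in the combination. The combination was below ipatasertib alone by 0.15 on the log2 scale (SE 0.06, adjusted p = 0.0469), a call that passed in 11 of 19 other settings.

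BUB1, MAD2L1, NDC80 and NUF2 rose with tazemetostat alone and fell with ipatasertib alone. In the outer kinetochore and checkpoint group of 8, 6 rose and none fell with tazemetostat, 6 fell with ipatasertib and 8 fell in the combination. Of all genes 25.1% rose and 20.9% fell with tazemetostat, 28.7% fell with ipatasertib and 34.5% fell in the combination. MAD2L1, the checkpoint protein that binds CDC20, was at 90.1, 94.7 and 94.2 CPM under DMSO, 81.4, 76.1 and 74.4 CPM with ipatasertib, 108, 125 and 116 CPM with tazemetostat and 59.5, 72.6 and 63.7 CPM in the combination. No group overlapped another. Its changes against DMSO were -0.27 (SE 0.07), 0.33 (SE 0.07) and -0.51 (SE 0.07). NUF2 and NDC80, which bind microtubules at the kinetochore, rose by 0.37 (SE 0.10) and 0.23 (SE 0.08) with tazemetostat and changed by -0.27 (SE 0.10) and -0.35 (SE 0.08) with ipatasertib. NUF2 in combination B, at 67.5 CPM, lay within the DMSO range of 62.1 to 69.9 CPM, and its fall in the combination by 0.24 on the log2 scale (SE 0.10, adjusted p = 0.0432) passed in 9 of 19 other settings. TTK, the kinase that starts checkpoint signalling, rose by 0.30 (SE 0.09) with tazemetostat and did not pass with ipatasertib at -0.21 (SE 0.09). The checkpoint kinase BUB1 and its partner BUB3 rose with tazemetostat by 0.19 (SE 0.07) and 0.26 (SE 0.06), while BUB1B at 0.09 (SE 0.06) did not pass. In the combination BUB1, BUB1B and BUB3 changed by -0.58 (SE 0.07), -0.70 (SE 0.06) and -0.19 (SE 0.06).

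At the centromere, CENPA was at 53.2, 50.1 and 51.7 CPM under DMSO, 39.3, 38.7 and 39.7 CPM with ipatasertib, 61.8, 59.6 and 58.0 CPM with tazemetostat and 35.2, 41.1 and 35.6 CPM in the combination. The tazemetostat libraries were above and the other treated libraries below DMSO, at 0.21 (SE 0.06), -0.40 (SE 0.07) and -0.47 (SE 0.07). CENPE, a kinesin that moves chromosomes to the spindle equator, changed by -0.51 (SE 0.10) with ipatasertib and -0.71 (SE 0.10) in the combination, and CENPF, a large corona protein, by -0.27 (SE 0.08) and -0.28 (SE 0.08). Neither passed with tazemetostat alone, at 0.03 (SE 0.09) and 0.06 (SE 0.08).

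Of the 11 inner kinetochore genes 7 fell with ipatasertib and 10 fell in the combination, against 28.7% and 34.5% of all genes. With tazemetostat 2 rose and 2 fell, near the 25.1% and 20.9% of all genes. CENPO was the lowest of them in the combination, going from 32.4, 31.2 and 30.7 CPM under DMSO to 17.4, 17.1 and 19.1 CPM with ipatasertib, 28.8, 28.4 and 26 CPM with tazemetostat and 14.9, 12.9 and 14.1 CPM in the combination. These groups did not overlap, and the changes were -0.82 (SE 0.08), -0.18 (SE 0.07) and -1.17 (SE 0.08). CENPI followed at -0.72 (SE 0.08) with ipatasertib and -0.99 (SE 0.08) in the combination, but at 0.06 (SE 0.08) with tazemetostat, not passing. CENPQ rose with tazemetostat by 0.34 (SE 0.09), and its change of -0.08 (SE 0.09) with ipatasertib did not pass. CENPT fell with each inhibitor, at -0.36 (SE 0.10) and -0.35 (SE 0.09), and in the combination, at -0.47 (SE 0.10).

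Outside the kinetochore, CENPV had the largest fall in the combination of all members. It went from 25.5, 23.8 and 25.8 CPM under DMSO to 16.9, 14.6 and 16.3 CPM with ipatasertib, 18.8, 18.2 and 17.5 CPM with tazemetostat and 10.1, 8.33 and 8.77 CPM in the combination. Each inhibitor lowered it, at -0.65 (SE 0.08) and -0.46 (SE 0.08), and the combination by more than either, at -1.47 (SE 0.09). CENPB, which binds alpha satellite DNA, showed the same order with changes of -0.46 (SE 0.09), -0.26 (SE 0.09) and -0.76 (SE 0.09). CENPJ, a centriole protein, fell with ipatasertib and the combination, by 0.47 (SE 0.08) and 0.66 (SE 0.08) on the log2 scale, and at 0.09 (SE 0.07) did not pass with tazemetostat.

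All 12 mitotic kinesins fell in the combination and 11 fell with ipatasertib, against 34.5% and 28.7% of all genes. KIF18B, which shortens microtubules at their plus ends, was at 87.5, 90.6 and 81.7 CPM under DMSO, 49.4, 52.7 and 53.6 CPM with ipatasertib, 68.1, 64.5 and 63.9 CPM with tazemetostat and 42.2, 26.9 and 32.2 CPM in the combination. No group overlapped another, and combination B was the lowest library here, unlike for the cyclins. Its changes were -0.74 (SE 0.10), -0.40 (SE 0.10) and -1.36 (SE 0.10). KIF23, a motor of the central spindle in cytokinesis, changed by -0.61 (SE 0.08) with ipatasertib and -0.75 (SE 0.08) in the combination. Its rise of 0.19 (SE 0.08) with tazemetostat passed at adjusted p = 0.046, but in 8 of 19 other settings only. KIF11, the motor that pushes spindle poles apart, was at 225, 226 and 234 CPM under DMSO, 184, 179 and 177 CPM with ipatasertib, 236, 273 and 260 CPM with tazemetostat and 137, 166 and 138 CPM in the combination. The combination lay below ipatasertib, which lay below DMSO, at -0.64 (SE 0.07) and -0.34 (SE 0.07) against DMSO.

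The microtubule depolymerase KIF2C changed by -0.51 (SE 0.05) with ipatasertib and -0.77 (SE 0.05) in the combination, and KIF20A, a motor of cytokinesis, by -0.49 (SE 0.06) and -0.66 (SE 0.06). KIF4A, which binds chromosome arms, changed by -0.64 (SE 0.06) and -0.68 (SE 0.06), so adding tazemetostat to ipatasertib gave -0.04 (SE 0.06), which did not pass. KIF4B, an intronless near-identical copy of KIF4A, is uncertain because reads may be split between them, and changed by -0.74 (SE 0.11) and -0.95 (SE 0.11). KIF22, another motor on chromosome arms, was lowered by each inhibitor, at -0.35 (SE 0.07) with ipatasertib and -0.17 (SE 0.07) with tazemetostat, and by -0.75 (SE 0.07) in the combination. Its tazemetostat call passed in 11 of 19 other settings. KIF14 and KIF20B, both of cytokinesis, changed by -0.48 (SE 0.08) and -0.29 (SE 0.09) with ipatasertib, and by -0.44 (SE 0.08) and -0.51 (SE 0.09) in the combination. KIF18A, which aligns chromosomes, passed with ipatasertib at -0.27 (SE 0.11), though in 10 of 19 other settings only. KIF15, a spindle motor, did not pass with ipatasertib at -0.16 (SE 0.09) and fell in the combination by 0.42 on the log2 scale (SE 0.09).

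Of the 5 spindle and chromosome regulators 3 fell with ipatasertib and 4 in the combination, against 28.7% and 34.5% of all genes. With tazemetostat 2 rose, against 25.1% of all genes, a list too small to read a share from. MKI67, the proliferation marker Ki-67 that coats mitotic chromosomes, was at 463, 494 and 444 CPM under DMSO, 241, 260 and 314 CPM with ipatasertib, 444, 512 and 492 CPM with tazemetostat and 283, 255 and 227 CPM in the combination. The groups with ipatasertib overlapped each other and lay below the other groups, at -0.78 (SE 0.09) and -0.87 (SE 0.09) against DMSO. TPX2, a spindle assembly factor and activator of AURKA, changed by -0.58 (SE 0.05) with ipatasertib and -0.87 (SE 0.05) in the combination, and BIRC5, survivin of the passenger complex, by -0.52 (SE 0.05) and -0.83 (SE 0.05). TOP2A, the topoisomerase that untangles chromosomes, was at 727, 712 and 765 CPM under DMSO, 696, 672 and 690 CPM with ipatasertib, 816, 949 and 945 CPM with tazemetostat and 589, 768 and 645 CPM in the combination. Tazemetostat libraries were highest and rose by 0.30 (SE 0.08, adjusted p = 0.00412). With ipatasertib and the combination TOP2A did not pass, at -0.10 (SE 0.08) and -0.14 (SE 0.08), and combination B was above every DMSO library. NUSAP1, which bundles spindle microtubules, rose with tazemetostat by 0.25 (SE 0.07), did not pass with ipatasertib at -0.10 (SE 0.07), and fell in the combination by 0.23 on the log2 scale (SE 0.07).

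**Figure D4:**
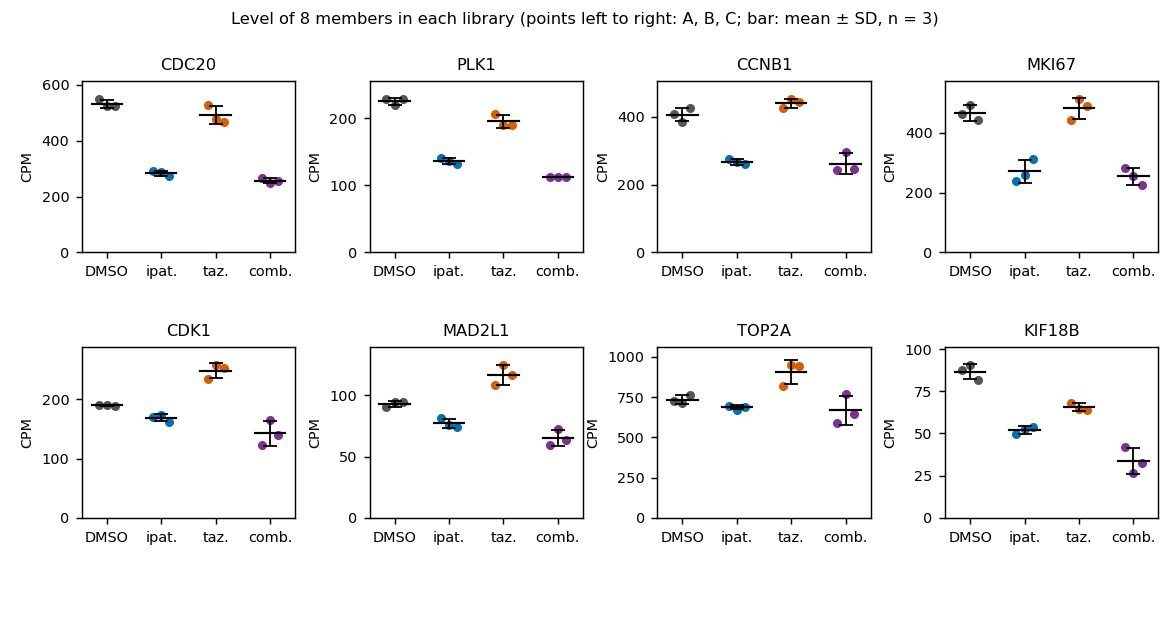
CPM (vertical axis, from 0) of 8 members in each library, with the mean and SD of 3 libraries per group. CDC20, PLK1, CCNB1 and MKI67 separate the groups with ipatasertib from the others, CDK1, MAD2L1 and TOP2A are highest with tazemetostat, and KIF18B is lower in every treated group.

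Of the 21 kinesins outside the mitotic list that passed the filter, 8 rose and 6 fell with ipatasertib, where 25.4% of all genes rose and 28.7% fell. With tazemetostat 7 rose and 3 fell, against 25.1% and 20.9% of all genes. In the combination 13 rose and 5 fell, against 36.5% and 34.5%. Falls with ipatasertib and both directions with tazemetostat were near the shares of all genes. The medians were 0.04, 0.09 and 0.28. KIF17, described below, is among the 8 and the 13. KIF26A, a kinesin without motor activity that is known from enteric nerve development, was at 1.43, 0.902 and 0.883 CPM under DMSO and at 0.677, 0.532 and 0.609 CPM with ipatasertib. With tazemetostat it was at 20, 16 and 17 CPM, and in the combination at 9.60, 5.99 and 7.71 CPM. Every library with tazemetostat lay above every library without it, and no group overlapped another. The change with tazemetostat was 4.0 (SE 0.18, adjusted p = 9.24e-13), and the combination was lower than tazemetostat by 1.18 on the log2 scale (SE 0.14, adjusted p = 3.19e-07). Ipatasertib alone gave -0.83 (SE 0.31, adjusted p = 0.0272), from 118 counts under DMSO and 55 with ipatasertib over 3 libraries each.

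KIF5C, a heavy chain of kinesin-1, the main motor of anterograde transport, was at 4.88, 5.47 and 5.46 CPM under DMSO, 6.47, 7.03 and 6.82 CPM with ipatasertib, 11, 14.6 and 13.1 CPM with tazemetostat and 14.6, 14.9 and 14.4 CPM in the combination. Tazemetostat gave 1.29 (SE 0.10) and the combination 1.48 (SE 0.11). The ubiquitous heavy chain KIF5B changed by less but passed each time, at -0.24 (SE 0.07), 0.22 (SE 0.07) and -0.17 (SE 0.07) in the 3 comparisons with DMSO. The neuronal KIF5A rose in the combination by 0.94 (SE 0.19).

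KIF13B, a vesicle motor, was at 25.8, 24.7 and 24.1 CPM under DMSO, 34.2, 35.5 and 40.7 CPM with ipatasertib, 26.8, 24.7 and 26.8 CPM with tazemetostat and 59.8, 44.4 and 56.0 CPM in the combination. It rose with ipatasertib by 0.56 (SE 0.09) and in the combination by 1.10 (SE 0.09), but not with tazemetostat alone at 0.07 (SE 0.09). KIF27 and KIF9 rose with ipatasertib by 0.67 (SE 0.11) and 0.56 (SE 0.15) and in the combination by 0.75 (SE 0.11) and 0.96 (SE 0.14). KIF17, a motor of cilia and dendrites, lay at 0.0981 to 0.180 CPM under DMSO, with 3 to 6 counts a library, and at 0.348 to 0.477 CPM with ipatasertib, from 14 counts against 39. It passed the filter only through the group where it is high, so it had to differ and its test is not given. KIF21B, which limits microtubule growth, rose with tazemetostat by 0.51 (SE 0.15), and its relative KIF21A by 0.49 (SE 0.08), although KIF21A fell with ipatasertib by 0.33 on the log2 scale (SE 0.08).

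KIF1C, a Golgi and vesicle motor, fell in every treated group. It was at 507, 491 and 460 CPM under DMSO, 327, 342 and 328 CPM with ipatasertib, 416, 362 and 354 CPM with tazemetostat and 306, 236 and 283 CPM in the combination. Combination libraries were the lowest, at -0.82 (SE 0.08) against DMSO, with -0.55 (SE 0.08) for ipatasertib and -0.37 (SE 0.08) for tazemetostat. KIF1B, a carrier of mitochondria and vesicles, and KIF2A, a microtubule depolymerase, changed in the combination by -0.28 (SE 0.07) and -0.61 (SE 0.07). Of the kinesin-2 motors, KIF3A and KIF3B rose in the combination by 0.35 (SE 0.09) and 0.20 (SE 0.06). KIF3C rose with ipatasertib by 0.42 (SE 0.09) and fell with tazemetostat by 0.27 on the log2 scale (SE 0.09). Of the rest, KIF13A and KIF16B rose in the combination by 0.28 (SE 0.07) and 0.37 (SE 0.08), and KIF24, KIF26B and KIF7 passed in none of the 3 comparisons with DMSO.

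**Figure D5:**
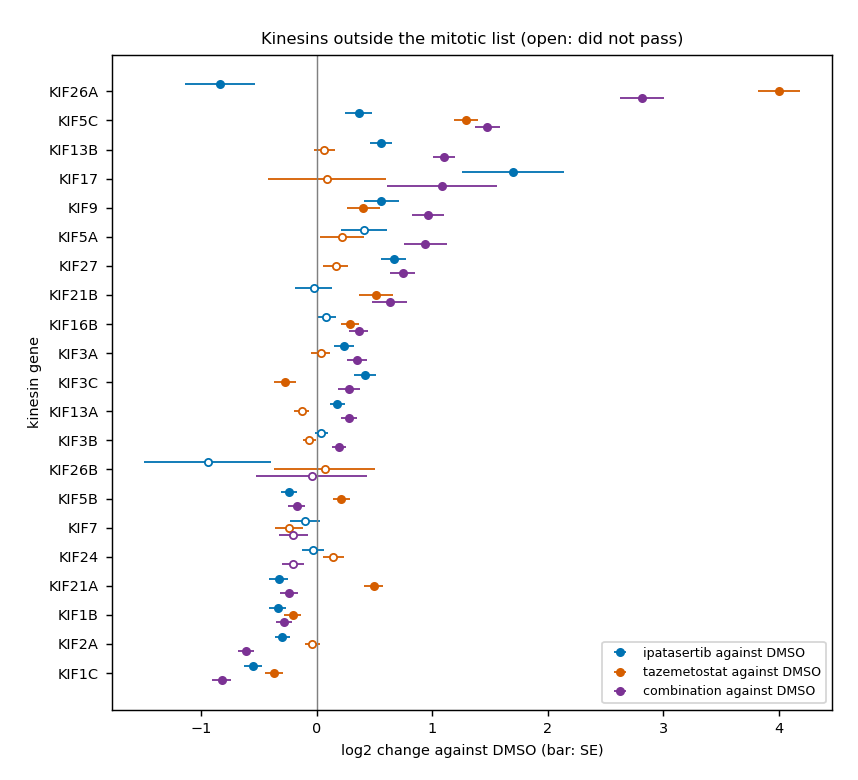
Log2 change against DMSO with its SE (horizontal axis) for the 21 kinesins outside the mitotic list, with ipatasertib in blue, tazemetostat in orange and the combination in purple, filled where the gene passed. KIF26A and KIF5C lie far right with tazemetostat and the combination, KIF13B rises with ipatasertib and the combination, and KIF1C is lower in all 3.

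Other genes of mitosis, taken from 6 lists of 113 genes that all passed the filter, were set beside the members. With ipatasertib 78 fell and 5 rose, with tazemetostat 7 fell and 37 rose, and in the combination 86 fell and 8 rose, with medians of -0.36, 0.09 and -0.49. Of all genes tested 28.7% fell and 25.4% rose with ipatasertib, 20.9% fell and 25.1% rose with tazemetostat, and 34.5% fell and 36.5% rose in the combination, so the rises with tazemetostat were nearer to the background than the falls with ipatasertib. Among regulators of the programme, MYBL2, which encodes B-MYB, went from 339, 332 and 308 CPM under DMSO to 167, 167 and 154 CPM with ipatasertib, 357, 310 and 305 CPM with tazemetostat and 132, 117 and 129 CPM in the combination. Ipatasertib and combination libraries lay below all others without overlap, at -1.00 (SE 0.07) and -1.37 (SE 0.07). TFDP2, a partner of E2F factors, moved the other way, from 20.1 to 22.3 CPM under DMSO to 46.0 to 46.8 CPM with ipatasertib, a change of 1.11 (SE 0.07). RBL2, the pocket protein p130 of resting cells, rose with ipatasertib by 0.43 (SE 0.06) and E2F4, its usual partner, fell by 0.54 on the log2 scale (SE 0.08). FOXM1 changed by -0.55 (SE 0.07) with ipatasertib and -0.70 (SE 0.07) in the combination. CDC25A, the phosphatase that activates cyclin-dependent kinases, had the largest fall of these lists, -1.20 (SE 0.06) with ipatasertib and -1.69 (SE 0.07) in the combination, and PKMYT1, a kinase that inhibits CDK1, changed by -0.89 (SE 0.12) and -1.38 (SE 0.12).

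The smaller lists are read against the same shares of all genes. Within the list of other kinetochore genes 15 of 24 fell with ipatasertib, with CASC5, the KNL1 scaffold, at -0.78 (SE 0.09), and 10 of 24 rose with tazemetostat, with MLF1IP, the inner kinetochore protein CENPU, at 0.49 (SE 0.09). Of 20 chromosomal passenger, cohesion and condensin genes 17 fell with ipatasertib, led by INCENP at -0.69 (SE 0.08), and 17 fell in the combination. In the anaphase-promoting complex list 7 of 16 fell with ipatasertib and 11 in the combination, where its subunit ANAPC1 and the ubiquitin-conjugating enzyme UBE2S changed by -1.01 (SE 0.07) and -0.95 (SE 0.09). Of 27 spindle and cytokinesis genes 25 fell with ipatasertib and 24 in the combination, among them the tubulin genes TUBA1B at -1.22 (SE 0.05) and TUBB at -1.01 (SE 0.05), which have near-identical copies and are uncertain. NUMA1, which anchors spindle poles, rose by 0.36 (SE 0.07) with ipatasertib and 0.50 (SE 0.07) in the combination. For comparison, 29 of 30 genes of S phase fell with ipatasertib and 29 in the combination, with medians of -0.45 and -0.72 beside -0.47 and -0.66 for the mitotic and centromere members. This difference between lists was not tested.

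The interaction asks whether the combination departs from the sum of the log2 changes of the inhibitors. It was negative for 10 members and positive for 1, where 1.75% and 1.87% of all genes tested were called. The 10 were CDK1, MAD2L1, CENPK, CENPQ, KIF15, KIF11, CENPH, CCNA2, NUSAP1 and BUB1B. For CDK1 tazemetostat gave 0.39 (SE 0.08) without ipatasertib and -0.24 (SE 0.08) with it, a difference of -0.62 (SE 0.11, adjusted p = 0.00251). For MAD2L1 the values were 0.33 (SE 0.07) and -0.25 (SE 0.07), a difference of -0.57 (SE 0.10, adjusted p = 0.00296), and for KIF11 0.17 (SE 0.07), not passing, and -0.29 (SE 0.07), a difference of -0.46 (SE 0.10, adjusted p = 0.0118). These 3 passed in each of 18 other settings. CDC20 and PLK1 were at -0.04 (SE 0.08) and -0.08 (SE 0.08) and did not pass. KIF13B was the positive one, at 0.47 (SE 0.13, adjusted p = 0.0497), in 7 of 18 other settings. The number of negative calls depended strongly on the libraries, with 35 without combination B, 21 without tazemetostat A, 40 without both, and 3 without DMSO A, DMSO B, ipatasertib A, tazemetostat B, tazemetostat C or combination C. It was 4 without ipatasertib B or ipatasertib C, and 5 without DMSO C. Interaction calls over all 14874 genes, in either direction, rose as well, from 539 in the main fit. They numbered 2482 without combination B, 1038 without tazemetostat A and 4756 without both, so these larger counts have a larger background. Over the 49 mitotic and centromere genes the median interaction was -0.30, against 0.00 over all genes. It was -0.36 over the 30 genes of S phase, 17 of which had a negative interaction, so a negative interaction was not particular to the mitotic genes.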

How the data were processed

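The deposited files hold raw counts per gene symbol for each of 12 libraries, and per the submitters' processing notes the authors used STAR, SAMtools, HTSeq and DESeq2 with hg19. No version, annotation or strand setting is stated in those notes, so overlapping and antisense genes cannot be told apart. Left out were 5 summary lines without a gene, which held 29.8% to 38.6% of a library. A further table deposited for the whole series was not used here.

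Counts were analysed with edgeR 4.0.16 in R 4.3.3: filterByExpr with a minimum count of 10 (14874 genes kept), TMM factors, 1 quasi-likelihood fit with 1 coefficient per group (common biological coefficient of variation 0.0645), F-tests of 7 comparisons, and Benjamini-Hochberg adjustment over all genes at 0.05. The SE of a log2 change was taken as its size over the root of F. On simulated counts for ipatasertib against DMSO over 14874 genes, 85.1% of 1.5-fold, 98.5% of 2-fold and 100% of 3-fold changes were recovered, with 14 false calls. The simulation changed just 67, 67 and 66 genes, in mixed directions. It held no outlying library and no change under 1.5-fold, so it does not test the scaling or the smaller changes. DESeq2 1.42.0 served as an alternative. Samples were grouped by their titles. Same-letter libraries correlated with each other (deviations from group means) at over 0.1 in 6 of 18 pairs, and libraries of different letters in 9 of 36. Letters were therefore not treated as pairs. Between tazemetostat and combination the same-letter values were 0.56 for A, 0.48 for B and -0.20 for C, so a link between some of these libraries is not excluded.

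The members and gene lists were chosen with earlier results of these data known. All members of the mitotic lists were named, and otherwise the 3 largest and smallest changes of remaining KIF and CENP members per comparison that passed, other kinesins for completeness, and pathway genes among the 2 largest changes per list and direction.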

Additional observations from a re-analysis of the deposited data

Results flagged for a closer look

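For 11 members the effect of tazemetostat differed between cells with and without ipatasertib by the interaction term of the edgeR quasi-likelihood fit (adjusted p under 0.05), with 3 libraries per group. The log2 difference was -0.62 for CDK1, -0.58 for CENPK, -0.57 for MAD2L1, -0.51 for CENPQ, -0.46 for KIF11, -0.46 for KIF15, -0.40 for CCNA2, -0.40 for CENPH, -0.37 for NUSAP1 and -0.31 for BUB1B. KIF13B, at 0.47, was the only positive value. Adjusted p lay between 0.00251 for CDK1 and 0.0497 for KIF13B. At an unadjusted p under 0.05 the interaction was negative for 36 members and positive for 4. The share of all genes at that threshold was not taken, so these counts have no background. Of the 11 adjusted calls 3 passed in each of 18 other settings. Without 1 library the negative adjusted calls ranged from 3 to 35. In the fit with 35, without combination B, 2482 of all genes were called in either direction, against 539 in the main fit.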

How the results depend on the processing

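The labels share replicate letters, and with the letter as a replicate block 19 members had a negative interaction, against 10 without it. No other count of members moved by over 1.5 times under the block. Under library totals alone 31 members rose and 6 fell with tazemetostat, and the interaction was positive for 0 and negative for 29. RLE size factors gave 0 positive interactions. Negative interactions numbered 26 without the filter and 21 with DESeq2. Interaction calls over all genes were 539 in the main fit and 753 with the block. They were 777 under library totals, 905 without the filter and 864 with DESeq2. Without tazemetostat A and combination B together, 34 members rose with tazemetostat, 43 fell when tazemetostat was added to ipatasertib, and 7 interactions were positive and 40 negative. In that fit calls over all genes rose as well, in the same order from 6849, 5823 and 539 to 8668, 6933 and 4756. Over the fits without 1 library, members that rose with tazemetostat ranged from 11 to 28 and those that fell from 7 to 11, those that rose when tazemetostat was added to ipatasertib from 5 to 8, and interactions from 0 to 4 positive and from 3 to 35 negative. The cause was not tested. All other counts of members called stayed within 1.5 times. Of 7128 values of named members under these alternatives, 6635 kept their call, 250 lost it, 243 gained it and 0 changed direction. Members called in every setting numbered 42 of 52 with ipatasertib, 15 of 31 with tazemetostat, 53 of 64 in the combination, 61 of 62 for ipatasertib added to tazemetostat, 23 of 35 for tazemetostat added to ipatasertib, 54 of 57 for ipatasertib against tazemetostat and 3 of 11 for the interaction. Members with few counts, such as KIF17 and KIF26B, are limited by depth.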

Other observations

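Among the kinesins left out by the filter on low counts, KIF1A, an axonal vesicle motor, had 1 count over the 3 DMSO libraries and 2 with ipatasertib, against 19 with tazemetostat and 25 in the combination. KIF12 had 4 and 4 against 33 and 21 counts, and KIF6 had 8 and 6 against 16 and 30. AURKC had 14, 6, 16 and 11 counts in the 4 groups. These sums are not scaled for library size and were not tested.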
